A study of Arabidopsis thaliana with 7 samples.

Results

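CCA1 binding in the core promoter was taken as the deposited CCA1 peaks that the authors annotated to a promoter and transcription start site (TSS) and whose centre lay from -200 to 100 bp of the nearest TSS. Peaks beside genes of the types rRNA, tRNA and pseudo were left out. The rule kept 419 of 1433 peaks in continuous light (LL; 29.2%, 95% Wilson interval 26.9 to 31.6) and 513 of 1607 peaks in light-dark cycles (LD; 31.9%, 29.7 to 34.2). The LD share was 2.68 percentage points higher, with a 95% Newcombe interval of -0.601 to 5.95 that includes 0. Annotation, position and gene type chose these peaks, and their scores, tags and overlap between the regimes were not used.

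The data are chromatin immunoprecipitation with sequencing (ChIP-seq) of CCA1 fused to green fluorescent protein (GFP) in Arabidopsis thaliana. The fusion was expressed under the CCA1 promoter in the WS-2 ecotype, and whole seedlings were used, so all cell types are mixed. Seedlings were 14 days old, had been entrained to 12 h light and 12 h dark, and were fixed with 1% formaldehyde for 20 min at zeitgeber time (ZT) 2, shortly after dawn or subjective dawn. Each peak's score, fold and nearest gene come from the authors' lists. LD seedlings stayed in the cycles (2 libraries), while LL seedlings had been released into continuous light (3 libraries). All groups carried the GFP fusion, and a LL library of ZT14 and an input library were not analysed here. Each regime has 1 peak list made from its combined libraries, so no value has a spread between replicates and no test of the regimes was possible. Intervals below cover counting error alone.

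CCA1 belongs to the MYB-related transcription factors and acts in the morning arm of the plant clock. It is known as a repressor of evening-phased genes, many of which carry the evening element, a short motif that CCA1 and its relative LHY bind. The core promoter is the stretch around the TSS where RNA polymerase II and the general transcription factors assemble.

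Peaks of LL spanned 158 bp and held 17 to 229 sequence tags (median 26). LD peaks spanned 124 bp and held 31 to 234 tags (median 46). Scores ran higher in LD for nearly all overlapping pairs. The authors' normalised signal held 7.48 units per tag in LL and 3.44 in LD, so equal tags stand for unequal normalised signal. LL and LD scores and tags are therefore given side by side and are not read as changes in binding. The interval of a tag count does not cover this scaling. The nearest gene of a core-promoter peak was protein-coding for 414 LL and 509 LD peaks and a non-coding RNA gene for 4 in each list. The remaining LL peak was mitochondrial and lay beside ATMG00830. No gene had more than 1 core-promoter peak in a list, so the peaks stand for 419 and 513 different genes.

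Within the window the peaks were densest directly upstream of the TSS. In LL 340 peaks (81.1%) and in LD 388 peaks (75.6%) had their centre upstream of the TSS. The median position was -72 bp in LL (quartiles -126.5 to -12) and -60 bp in LD (quartiles -119 to -2). From -100 bp to the TSS there were 184 LL and 221 LD peaks. The next 100 bp upstream held 156 and 167, and the 100 bp downstream of the TSS held 79 and 125. Counts fell off beyond the window, with 111 LL and 90 LD promoter peaks between -300 and -200 bp.

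**Figure D1:**
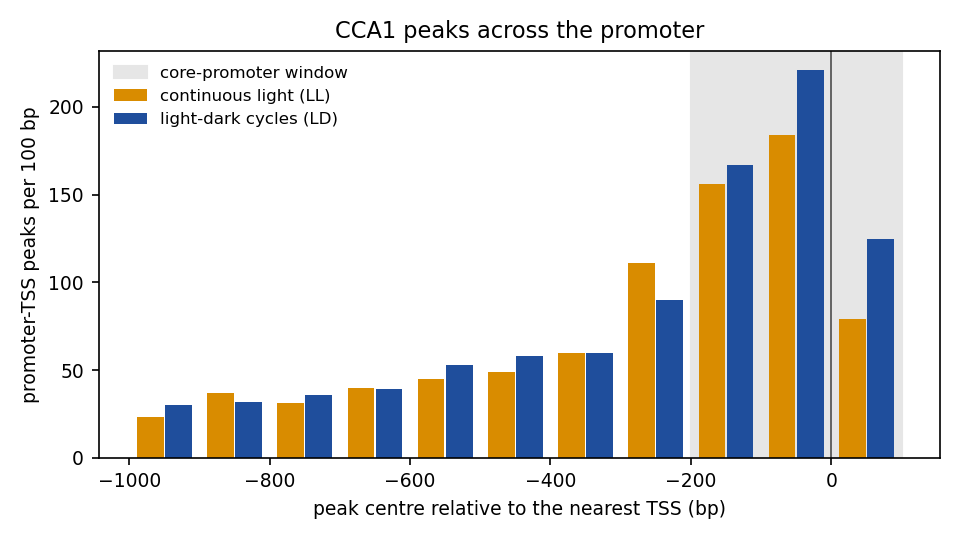
Number of promoter-TSS peaks per 100 bp of distance to the TSS in LL and LD, with the gene types named above left out; the grey band is the core-promoter window. The tallest bars, 184 LL and 221 LD peaks, stand directly upstream of the TSS, and the bars fall to 79 and 125 downstream of it.

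The upstream bound of the window cuts through a continuous distribution. Just inside the upstream bound lay the LL peaks of AT3G61750 (-200 bp, score 24), AT2G45590 (-198 bp, score 30) and TMM (-197 bp, score 19), a receptor-like protein of stomatal patterning. Just outside it lay those of the light-harvesting gene LHCB1.3 (-202 bp, score 52), the peroxisome division gene PEX11D (-201 bp, score 38) and AT5G43260 (-201 bp, score 23). In LD the corresponding peaks inside were at AT2G37140 (score 78), AT3G16560 (score 120) and AT5G57345 (score 35), and those outside at LHCB1.3 (score 99), AT3G46630 (score 102) and AT5G27730 (score 51). Within 25 bp of this bound there were 33 LL peaks inside and 35 outside, and 35 LD peaks inside and 30 outside. A peak can therefore change class between the lists by a shift of a few bp.

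At the downstream bound, the LL peaks just inside belonged to PRR5 (89 bp, score 44), AT3G47160 (96 bp, score 38) and the ferredoxin gene FED A (99 bp, score 20). The LL promoter-TSS peaks just outside were at UPM1 (115 bp, score 28), a gene of sirohaem synthesis, AT1G22767 (201 bp, score 106) and AT1G40104 (206 bp, score 50). In LD the peaks inside lay at AT2G30032 (93 bp, score 73), the catalase gene CAT1 (96 bp, score 59) and AT3G47160 (97 bp, score 52). The LD promoter-TSS peaks outside lay at UPM1 (107 bp, score 35), AT5G23640 (108 bp, score 46) and AT3G50751 (113 bp, score 39). Peaks past this bound with another annotation were left aside, such as the LL peak of BBX32 at 110 bp.

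The strongest core-promoter peaks included those of clock, stress and chloroplast genes, and 7 of the genes with the 10 highest scores in LL were also among the 10 highest in LD. JMJD5 (AT3G20810), which encodes a histone demethylase of the evening phase, led the LL core-promoter peaks with a score of 140. That peak lay on chromosome 3 from 7275570 to 7275728 (TAIR10), 25 bp upstream of the TSS, with 183 tags (157 to 212 by the exact 95% Poisson interval) and 66.8 times the control. In LD its peak held 176 tags (151 to 204) with a score of 178, 5 bp upstream of the TSS and 43.6-fold over control. This gene was thus near the top of both lists at almost the same site.

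COR27 (AT5G42900), a night-phased repressor of clock genes that also responds to cold, had the second highest LL core-promoter score. Its peak on chromosome 5 from 17199821 to 17199979 held 172 tags (147 to 200; score 131) in LL, 107 bp upstream. In LD it held 148 tags (125 to 174; score 152), 106 bp upstream, so the centres differed by 1 bp. DREB2A (AT5G05410), a transcription factor of drought and heat responses, had its LL peak directly on the TSS (0 bp, 176 tags, 151 to 204, score 124) and its LD peak 6 bp downstream (165 tags, 141 to 192, score 165).

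Chloroplast genes stood close behind. PORB (AT4G27440), a light-dependent enzyme of chlorophyll synthesis, scored 105 in LL with 116 tags (95.9 to 139) and 164 in LD with 162 tags (138 to 189). CP29 (AT3G53460), a chloroplast RNA-binding protein, and RbcX1 (AT4G04330), a Rubisco assembly chaperone, were among the 10 highest in LL with scores of 87 and 84. SCPL49, a carboxypeptidase-like gene, also scored 84 in LL but with fewer tags (88 against 90). The cold-regulated chloroplast membrane gene COR314-TM2 (AT1G29390) was among the 10 highest in LD with a score of 145, 9 bp downstream of the TSS.

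The other leading genes were of more varied kinds. MEE14 (AT2G15890), named for an embryo-arrest phenotype, scored 115 in LL and 173 in LD. AT1G78995, a hypothetical protein gene, scored 91 and 194, and APC1 (AT5G61810), annotated as an ATP-Mg/Pi transporter gene, scored 85 and 157. BET9 (AT5G14270), which encodes a bromodomain protein, scored 91 in LL.

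GRP7 (AT2G21660), which encodes an RNA-binding protein under clock control, had the highest LD score of the core promoter (236; 231 tags, 202 to 263). Its LD peak lay 188 bp upstream, and the LL peak it overlapped lay 203 bp upstream, just outside the window. The non-coding RNA gene AT3G41761 (score 148 in LD) stood apart from the other leading peaks in its control signal. It held 16.4 control tags in LD, more than 99.3% of the LD peaks, was 8.79-fold over control and had a GC content of 51.5%. AT5G10340 and AT3G41762 also had high control tags in both lists, with 14.0 and 13.2 in LD. The part of these control tags in the scores was not tested.

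Most core-promoter sites were shared between the regimes. Among the 419 LL peaks, 328 overlapped a LD peak by at least 1 bp (78.3%, 95% Wilson interval 74.1 to 82.0), against 74.6% of all LL peaks. Of the 513 LD peaks, 337 overlapped a LL peak (65.7%, 61.5 to 69.7), against 66.5% of all LD peaks. In 322 of these overlaps the peaks were core-promoter peaks in both lists, and 6 LL and 15 LD peaks overlapped a peak that the rule did not keep. The remaining 91 LL and 176 LD peaks had no counterpart.

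Compared with the other nuclear peaks of their list, core-promoter peaks overlapped more often in LL, and in LD the interval of the difference includes 0. In LL the difference was 5.20 percentage points (95% Newcombe interval 0.248 to 9.84), since 741 of 1014 other peaks overlapped (73.1%). In LD it was -1.22 points (-6.23 to 3.67), with 732 of 1094 (66.9%). Against the promoter peaks further upstream alone, the difference was 4.80 points in LL (-1.07 to 10.7) and -5.16 points in LD (-11.1 to 0.955), and both intervals include 0. The LL difference is therefore small, and it was 2.87 points when the window was narrowed to -100 to 50 bp.

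Overlap followed the score. In the highest of 4 score classes of nearly equal size, all 107 LL peaks and 129 of 133 LD peaks of the core promoter overlapped. Other nuclear peaks of this class overlapped nearly as often, in 97.2% of cases in LL and 95.9% in LD. In every class but the lowest, the interval of the difference to other nuclear peaks includes 0 in both lists. In the lowest class 56 of 109 LL peaks (51.4%) and 50 of 130 LD peaks (38.5%) did. Other nuclear peaks of the lowest class overlapped in 39.8% of cases in LL and 35.7% in LD, 11.6 points (0.471 to 22.5) and 2.80 points (-7.05 to 13.0) below the core-promoter peaks. Overlap needs a call in each list, so a weak peak without a counterpart is not shown to be absent in the other regime.

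In LD the share of peaks with a LL counterpart was lower near and past the TSS. It was 73.7% (66.5 to 79.7) from -200 to -101 bp, 64.3% (57.7 to 70.3) from -100 to -1 bp and 57.6% (48.8 to 65.9) from 0 to 100 bp. The downstream share minus that of the most upstream stretch was -16.1 points (95% Newcombe interval of the difference -26.7 to -5.08). Median scores in these stretches were 50, 46 and 46. In LL the shares were 80.1% (73.2 to 85.6), 77.7% (71.2 to 83.1) and 75.9% (65.5 to 84.0), a difference of -4.18 points (-16.0 to 6.48) between the ends of the window.

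Much of the LD pattern lay among weaker peaks. Within the 2 upper score classes of LD, the shares were 91.1%, 87.8% and 83.3%, and the difference between the ends was -7.78 points with an interval of -19.9 to 2.86. In the same classes of LL the shares were 94.9%, 94.3% and 100%. There the difference between the ends had the other sign, 5.13 points with an interval of -5.24 to 12.5. These stretches were compared after the values had been seen, and the difference between the regimes in this trend was not tested.

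**Figure D2:**
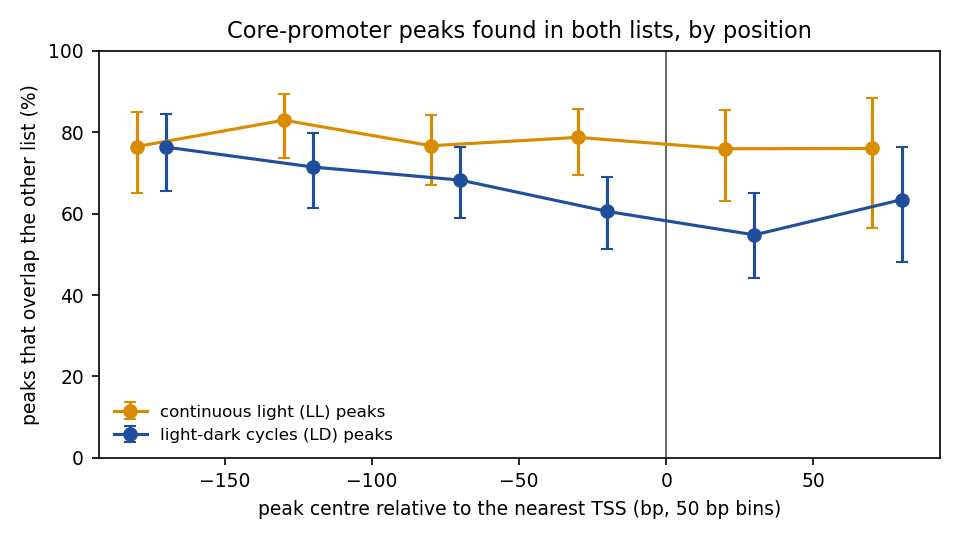
Share of core-promoter peaks that overlap a peak of the other list by at least 1 bp, in 50 bp bins of distance to the TSS; points are shares and bars 95% Wilson intervals. LL shares stay between 75.9% and 83.0%, while LD shares go from 76.3% in the most upstream bin to 54.8% just downstream of the TSS and 63.4% in the last bin.

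Where core-promoter peaks of the regimes overlapped, their centres lay at nearly the same place. Of the 322 overlapping pairs, 321 had the same nearest gene. The exception was the site of PRR7, which was assigned to PRR7 in LD and to the neighbouring AT5G02811 in LL. The centres of the 321 pairs differed by a median of 14 bp (quartiles 6 to 27), and 294 (91.6%) lay within 50 bp of each other. Overlapping peaks have close centres by construction, since spans of 158 and 124 bp limit the gap. Without overlap, 2 LL and 2 LD core-promoter peaks had a nearest gene with a core-promoter peak in the other list. By distance to the nearest TSS, the LD peak was further downstream in 171 pairs and further upstream in 142. The median difference in distance was 2 bp (quartiles -11 to 19). These distances do not always follow the centres. At FEI2 they were -69 bp in LL and 68 bp in LD, although the centres lay 1 bp apart. The widest gap, 141 bp, was at RCI2A, a cold- and salt-inducible membrane protein gene, which was chosen for this value.

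Scores of the pairs went together across genes. Over the 321 pairs, Pearson's r of the log2 scores was 0.782 and Spearman's rho was 0.725, as a description across peaks that share libraries. The pairs had a median score of 28 in LL and 55 in LD. Scores of core-promoter peaks were close to those of other nuclear peaks, with medians of 25 (interval of the median 24 to 27) against 26 in LL and 47 (45 to 49) against 48 in LD.

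**Figure D3:**
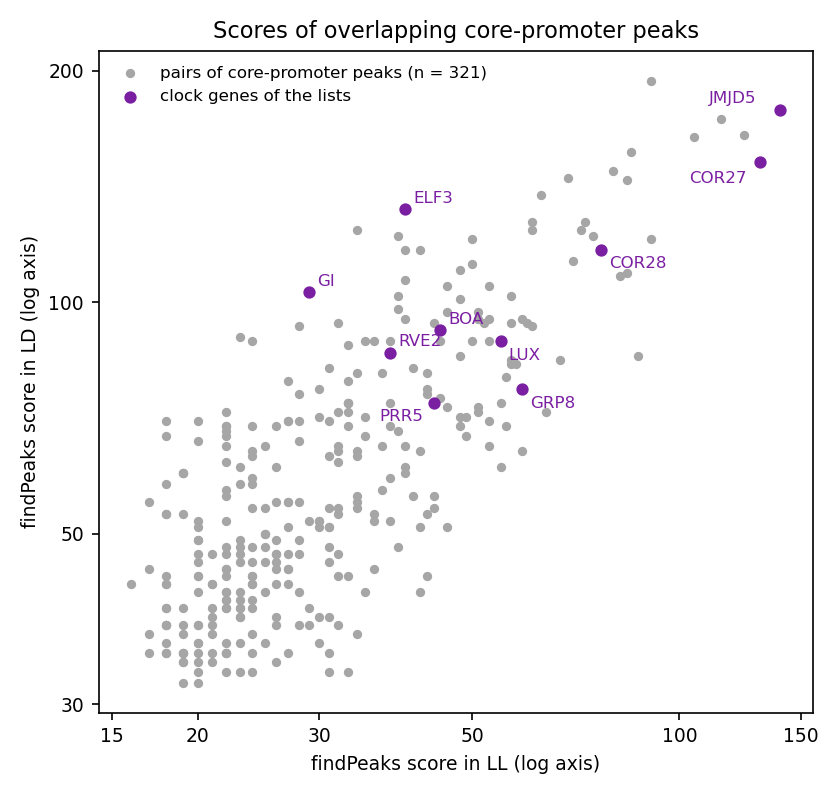
Authors' findPeaks score of the 321 overlapping pairs of core-promoter peaks with the same gene, LL on the horizontal and LD on the vertical axis, both logarithmic; clock genes of the lists are in purple. JMJD5 (140 and 178) and COR27 (131 and 152) stand at the upper end, and GI (29 and 103) and ELF3 (40 and 132) have high LD scores for their LL scores.

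Genes of 10 lists by function were then looked up. Of their 139 genes, 31 had a core-promoter peak in LL (22.3%), 38 in LD (27.3%) and 28 in both, 41 in either. Among all 37899 nuclear genes, 1.09% had one in LL and 1.34% in LD, and among protein-coding genes 1.49% and 1.83%. A peak at any position was held by 58 of the 139 list genes in LL (41.7%) and 64 in LD (46.0%), against 3.38% and 3.77% of nuclear genes. The lists were chosen with earlier results of these data known, so these shares are a description.

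Evening clock genes held the largest share of core-promoter peaks among the lists of more than 5 genes: 8 of 12 in LL and 7 of 12 in LD. Besides JMJD5 and COR27 these included COR28, a relative of COR27, with 80 tags (63.4 to 99.6) in LL and 117 (96.8 to 140) in LD. The evening complex genes ELF3 and LUX, which act together as a repressor at night, had peaks in both lists. ELF4, also among the evening clock genes, was not the nearest gene of any peak in either regime. ELF3 held 43 tags in LL (31.1 to 57.9), 11 bp upstream, and 130 in LD (109 to 154), 7 bp downstream. LUX held 60 (45.8 to 77.2) and 88 (70.6 to 108), and its relative BOA held 48 (35.4 to 63.6) and 90 (72.4 to 111). GI, a large clock protein gene of flowering and light input, held 26 tags in LL (17.0 to 38.1) and 102 in LD (83.2 to 124). A further peak, annotated by the authors to the promoter of GI, had AT1G22767 as its nearest gene and lay outside the window, with 117 and 140 tags. At LUX such a peak had AT3G46630 as its nearest gene, with 63 and 99 tags. LKP2, a blue-light F-box protein gene, had a peak in LL alone (28 tags, score 29).

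The window leaves out well-known clock targets by a narrow margin. TOC1, the evening repressor of CCA1, had its peaks 274 bp (LL) and 210 bp (LD) upstream. The blue-light receptor gene FKF1 had its nearest peaks at 225 bp and 255 bp upstream, and CCA1 itself at 214 bp and 252 bp. These genes count as bound outside the core promoter, not as unbound.

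Morning genes and pseudo-response regulators were represented by fewer genes, and the second list holds only 5. The share with a core-promoter peak was 7.14% in LL and 14.3% in LD for morning genes. For pseudo-response regulators it was 20% and 40%. Of 14 morning clock genes, RVE2, a relative of CCA1, had a core-promoter peak in both lists (37 and 85 tags), and LHY had one in LD (40 tags, 28.6 to 54.5). Of 5 pseudo-response regulators, which repress CCA1 through the day, PRR5 had a core-promoter peak in both lists, 89 and 80 bp downstream of the TSS, with 43 and 73 tags. PRR5 also had 3 further peaks upstream in each list. PRR7 had a core-promoter peak in LD (62 tags, 24 bp upstream). The LL peak that it overlapped (38 tags) was assigned to AT5G02811, but the authors' annotation column places it in the PRR7 promoter. The peak that the authors' annotation column places in the PRR9 promoter was assigned to the adjacent AT2G46787, 8 and 29 bp downstream of that gene's TSS, with scores of 50 and 112.

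By count, starch genes were the other list with many members bound close to the TSS. They were 8 of 22 in LL (36.4%) and 7 of 22 in LD (31.8%), with 6 in both. The dikinase genes GWD1 (34 and 61 tags) and PWD (24 and 40 tags), whose products phosphorylate starch so that it can be degraded, had peaks in both. ISA3, a debranching enzyme gene, held 48 tags (35.4 to 63.6) in LL and 89 (71.5 to 110) in LD. SS4, which encodes a starch synthase that initiates granules, held 64 (49.3 to 81.7) and 101 (82.3 to 123), at 8 bp upstream and 14 bp downstream of the TSS. The glucan phosphorylase gene PHS1 (21 and 58 tags) and the amylase gene AMY3 (18 and 32 tags) completed those found in both. DPE1 (score 22) and PHS2 (score 19) had a core-promoter peak in LL alone and PGM1 (score 34) in LD alone, and each of these 3 genes had a peak elsewhere in the other list.

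**Figure D4:**
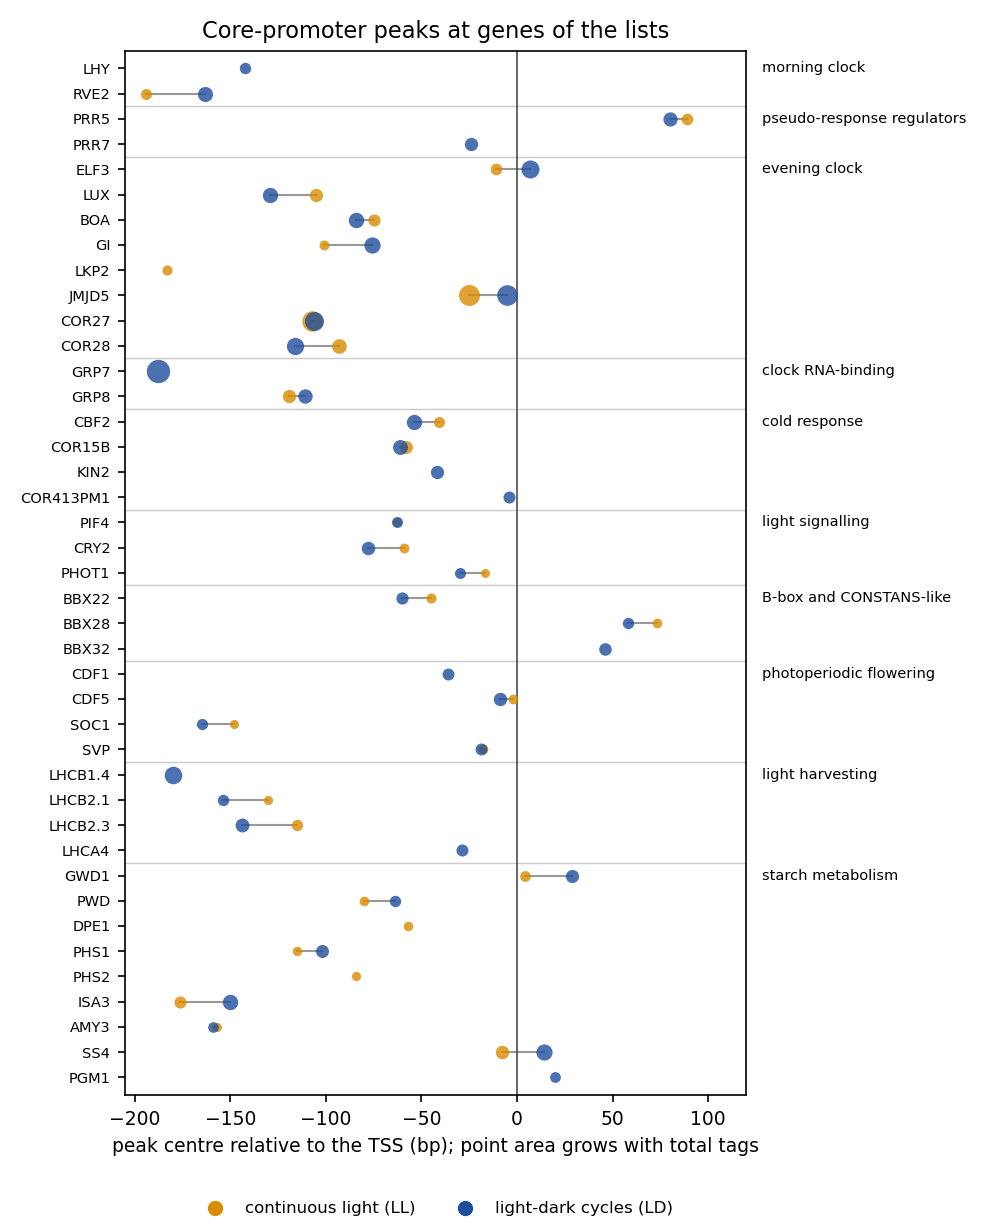
Distance of the peak centre to the TSS for the 41 list genes with a core-promoter peak in either regime, grouped by list; point area grows with total tags, and grey lines join the LL and LD peak of a gene. Most joined points lie close together and upstream of the TSS, with PRR5, BBX28 and GWD1 downstream of it in both regimes.

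Cold-response and clock RNA-binding genes gave smaller counts, the latter from a list of only 2 genes, both with a core-promoter peak in LD. CBF2, a master regulator of cold acclimation, held 37 tags (26.1 to 51.0) in LL and 88 (70.6 to 108) in LD, and the chloroplast protectant gene COR15B held 57 (43.2 to 73.9) and 83 (66.1 to 103). These were the 2 of 17 cold genes with a core-promoter peak in LL. KIN2 (61 tags) and COR413PM1 (47 tags) brought the LD count to 4. GRP8, the close relative of GRP7, held 62 tags in LL and 76 in LD.

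Light and flowering genes had LL scores of 17 to 25, at or below the median of 25 over core-promoter peaks. In LD, where that median was 47, CRY2 (score 65) and CDF5 (64) lay above it and CDF1 (47) at it. PIF4 (37), PHOT1 (38), SOC1 (38) and SVP (46) lay below it. Of 20 light signalling genes, PIF4, a growth-promoting transcription factor gene, and the blue-light receptor genes CRY2 and PHOT1 had core-promoter peaks in both lists. Their LL peaks held 18, 25 and 18 tags and their LD peaks 36, 64 and 36. Of 12 flowering genes, CDF5, SOC1 and SVP had one in both, with 24, 18 and 25 tags in LL and 63, 38 and 46 in LD. CDF5 encodes a repressor of CONSTANS, SOC1 an activator of flowering and SVP a repressor of it. CDF1, a relative of CDF5, had one in LD (46 tags).

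B-box and light-harvesting genes each had 2 core-promoter peaks in LL. Of 18 B-box genes, BBX22 and BBX28 had core-promoter peaks in both lists (28 and 24 tags in LL, 49 and 40 in LD), and BBX32 had one in LD (53 tags, 46 bp downstream), which overlapped a LL peak 110 bp downstream. Among the LL core-promoter peaks of list genes, those of BBX22 and BBX28 had the lowest folds over control, 5.84 and 7.91. Of 17 light-harvesting antenna genes, LHCB2.1 (19 and 40 tags) and LHCB2.3 (40 and 69 tags) had one in both lists. LHCB1.4 (122 tags) and LHCA4 (47 tags) had one in LD, and the LL peak of LHCB1.4 lay at -212 bp, outside the window.

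Peaks without a counterpart were weak for their list. Their median score was 20 in LL and 39 in LD, against 29 and 55 for overlapping core-promoter peaks. The nearest gene had no peak at all in the other list for 78 of the 91 LL peaks and 161 of the 176 LD peaks. Most nuclear genes lack a peak, since 3.38% had one at any position in LL and 3.77% in LD. These counts were not set against other peaks without a counterpart, so they describe nothing particular to the core promoter. The highest-scoring LL core-promoter peak without a counterpart, at the signal peptide peptidase-like gene SPPL2 (33 tags, 22.7 to 46.3), stood at rank 420 of its list.

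The LL peaks that followed lay at AT2G33830 (35 tags), annotated as dormancy- and auxin-associated, AT2G48060 (29 tags), the homeodomain gene BLH7 (30 tags) and LKP2. In LD the highest were at the early nodulin-like gene ENODL2 (80 tags, 63.4 to 99.6, rank 242) and AT4G30650 (68 tags), annotated as a low-temperature and salt responsive protein gene. DIP2 (66 tags) and the thiamine synthesis gene THIC (67 tags) lay only 215 and 228 bp from a LL peak, centre to centre. KIN2 was the last of the 5.

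Some genes with a core-promoter peak had a further peak. Counted per gene, these were 40 of 418 nuclear LL genes (9.57%, 95% Wilson interval 7.11 to 12.8), against 49 of 820 other bound genes (5.98%) and 7.19% of all genes with a peak. In LD they were 42 of 513 (8.19%) against 68 of 881 (7.72%) and 7.89% of all genes with a peak. The differences were 3.59 points in LL and 0.469 points in LD.

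Neither direction can be read from these counts. A gene with several peaks has more chances of one inside the window, which places such genes among the core-promoter genes by construction. Counted per peak, a gene with several peaks enters repeatedly among the other peaks, and the differences were -7.35 points in LL and -11.5 points in LD. The per-peak count was made first, and the count per gene was added after its values had been seen.

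Base composition differed between the core promoter and the promoter further upstream. The 500 bp window around a core-promoter peak had a median GC content of 34.7% in LL (quartiles 32.3 to 38.1) and 35.7% in LD (32.9 to 38.3). Promoter peaks further upstream had 31.1% and 31.9%, and all other nuclear peaks 31.7% and 32.3%. GC content increased along the window, from 33.7% in LL and 34.5% in LD at -200 to -100 bp to 36.1% and 36.7% downstream of the TSS. Windows near the TSS reach into the transcribed region, and no promoters without a peak were available for comparison, so the part of CCA1 binding in this gradient was not tested.

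**Figure D5:**
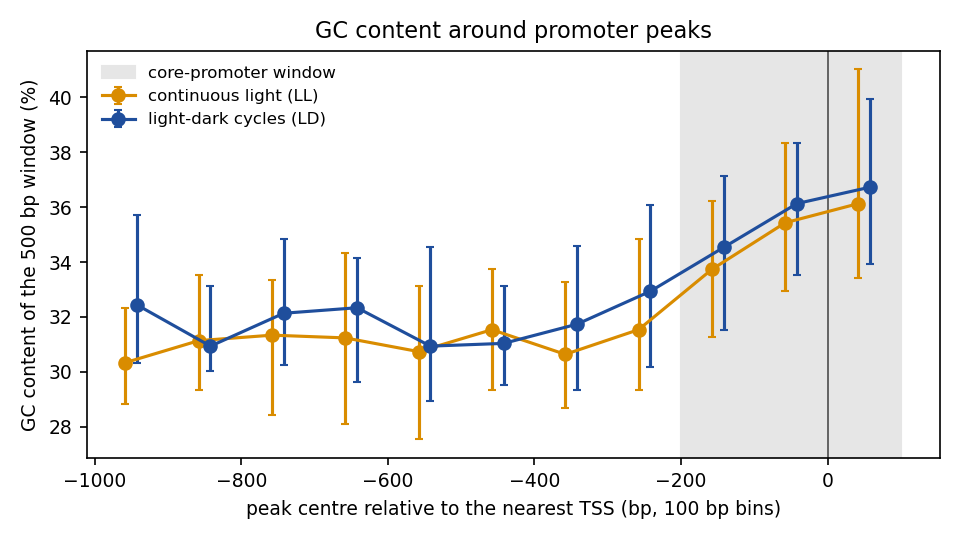
Median GC content of the 500 bp window around promoter-TSS peaks in 100 bp bins of distance to the TSS, with bars from the lower to the upper quartile; the grey band is the core-promoter window and the vertical axis does not start at 0. Medians lie between 30.3% and 32.9% outside the window and between 33.7% and 36.7% inside it.

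Control tags and folds over control differed little. Core-promoter peaks had a median of 1.9 control tags in LL against 2.2 at other nuclear peaks, and 3.2 against 3.4 in LD. The median fold over control was 14.7 against 13.2 in LL and 15.7 against 14.1 in LD. For 41 LL peaks (9.79%) and 49 LD peaks (9.55%) the authors' annotation column named another gene than the nearest promoter, which limits the assignment of these peaks to a gene.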

How the data were processed

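The submitters' processing notes name HOMER 4.7, Bowtie2 2.2.1, Trimmomatic 0.33 and CASAVA 1.8, and TAIR10 as the genome build. What was done about duplicates, the threshold for reproducible peaks and the identity of the control library were not given in the sources used here. For each peak of the combined libraries the authors deposited a tag count, a normalised signal, a control signal scaled to the size of the immunoprecipitate, a findPeaks score, the fraction of tags on the expected side of the centre and a fold ratio over control. The normalised signal held 7.48 units per tag in LL and 3.44 in LD. Per the file headers, annotatePeaks.pl gave the distance to the TSS, the nearest promoter, and GC as a fraction of a 500 bp window, shown here as percent. The deposited columns held 0 unused per-sample columns.

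Lists were treated separately, and peaks were called overlapping from 1 bp. Shares have 95% Wilson, differences of shares Newcombe, tags exact Poisson and medians order-statistic intervals (Python 3.11.15, pandas 2.3.3, scipy 1.17.1, statsmodels 0.14.6). They cover counting error alone, and peaks are not replicates. The overlap routine was tested on simulated lists. Gene names came from a RefSeq table of TAIR10.1, which matched 412 of 419 LL and 507 of 513 LD genes. Genes were named if they had one of the 10 highest core-promoter scores of a list or one of the 5 highest without overlap, lay at a bound of the window (3 peaks on each side), or belonged to a list and had a core-promoter peak. RCI2A, SCPL49, TOC1, FKF1, CCA1, AT2G46787, AT5G02811, AT5G10340, AT3G41762, the AT1G22767 and AT3G46630 peaks beside GI and LUX and the genes of the closing section were chosen after their values were seen. FEI2 was also chosen after its values were seen. The members and lists were chosen with earlier results of these data known. The planned motif searches and promoter sequences need a genome or promoter table and are not used here.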

Additional observations from a re-analysis of the deposited data

Results flagged for a closer look

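The window also held peaks that the rule leaves out because their nearest gene is an rRNA gene, a tRNA gene or a pseudogene, 8 in LL and 5 in LD. They are not counted among the core-promoter peaks and enter the comparisons of overlap and score as part of the other nuclear peaks. All of them passed the authors' calling over control. Their folds over control were 4.01 to 36.6 in LL and 5.91 to 21.6 in LD. Of them, 5 LL and 4 LD peaks overlapped a peak of the other list. Their control tags ran from 1.2 to 9.4 in LL and from 2.6 to 16.4 in LD, against medians of 1.9 and 3.2 for core-promoter peaks.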

How the results depend on the processing

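Of 116 values under 12 alternatives, 102 stayed within their interval or within 1.5 times the count, 12 moved and 2 reversed. With the window from -100 to 50 bp there were 239 LL and 306 LD peaks, 163 genes in both lists, 17 LL and 22 LD list genes, and a median GC content of 35.7% in LL. With the upper 50% of each list by score there were 200 LL and 247 LD peaks, 155 genes in both lists, 18 LL list genes, and median scores of 38 in LL and 69 in LD. Fewer peaks enter under both by construction. The difference in genes with a further peak reversed to -7.35 points in LL and -11.5 points in LD when counted per peak. The difference in overlap between core-promoter and other peaks ran from 2.87 to 6.71 points in LL and from -5.88 to 1.56 points in LD, where the sign changed with the window from -300 to 100 bp. Overlap rules cannot change counts of peaks or genes, and the motif alternatives were not run. No paired analysis was possible because the pooled lists carry no replicate numbers, and no replicate could be left out. Weak peaks limit every count of overlap, since LL peaks started at 17 tags.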

Other observations

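Words in the authors' gene descriptions were counted after the values had been seen. Each share has its own interval, and overlap of such intervals does not show that the shares are alike. Intervals of the differences between these shares were not computed. Plastid and photosynthesis words appeared for 15 of 419 core-promoter genes in LL (3.58%, 95% Wilson interval 2.18 to 5.82) and 18 of 513 in LD (3.51%, 2.23 to 5.48). Among genes with other nuclear peaks the LL count was 8 of 927 (0.863%) and the LD count 6 of 984 (0.610%). Among genes with promoter peaks further upstream the shares were 1.53% (0.703 to 3.30) in LL and 1.29% (0.550 to 2.97) in LD, whose intervals overlap those of the core promoter. Besides the genes named above, they included PTAC17 (score 72 in LL, 124 in LD), annotated as plastid transcriptionally active, and HCAR (60 and 94), an enzyme of chlorophyll b turnover. The photosystem I subunit genes PSAD-2 (20 and 52) and PSAE-1 (20 and 33) had weak peaks in both. Words of cold or dehydration appeared for 2.86% of core-promoter genes in LL (1.65 to 4.94) and 2.73% in LD (1.63 to 4.53). Genes with other nuclear peaks had 0.755% and 0.508%. Genes with promoter peaks further upstream had 1.02% (0.398 to 2.59) and 0.514% (0.141 to 1.85), whose intervals overlap those of the core promoter. Transcription factor words appeared for 8.59% (6.27 to 11.7) of core-promoter genes in LL and 6.63% (4.78 to 9.12) in LD. Genes with other nuclear peaks had 11.8% (9.84 to 14.0) and 11.6% (9.73 to 13.7), and the LL intervals overlap. Further upstream in the promoter the shares were 11.2% (8.47 to 14.7) and 10.3% (7.64 to 13.7), and the intervals overlap those of the core promoter in both lists.

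Some core-promoter peaks lay at non-coding RNA genes or poorly known loci beside clock and stress genes. AT1G69572, a non-coding RNA gene next to CDF5, held 60 tags in LL and 69 in LD. AT2G40081, whose locus number follows that of the evening clock gene ELF4, held 63 and 92 tags. ELF4 itself was not the nearest gene of any peak. A peak assigned to AT5G14550 (71 tags in both lists) was placed by the authors' annotation column at another gene, AT5G14565.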
